A study of Homo sapiens with 6 samples.

Results

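The genes described are 10 that encode cytoplasmic intermediate filament proteins: NEFL, NEFM, NEFH, INA, PRPH, NES, VIM, KRT8, KRT18 and KRT19. They were chosen by symbol, as the rows of the array table whose annotation names one of them. All 10 were found among the 18417 genes with a symbol of their own, through 11 of the 33297 transcript clusters, each cluster being the set of probes that reads 1 transcribed locus. For KRT18 the annotation gave 2 clusters its symbol alone, and the brighter one represented it. RNA of HEK293 cells, an established line made from human embryonic kidney cultures with adenovirus DNA, was read on 6 Affymetrix Gene 1.0 ST arrays, 1 biotin-labelled sample per array. There were 3 treatment arrays, whose source label names a Neo vector, and 3 control arrays, whose source label names a transient vector. The design text instead describes the comparison as cells transfected with the empty plasmid pCMV9 against cells left untreated, so what the control cells received is not settled and the groups keep their title names. The labels give no time after transfection or dose. Nor do they say whether replicates were separate cultures, so p-values cover the spread of these arrays alone, and that spread may be technical.

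Intermediate filaments are rope-like polymers that give a cell its mechanical strength, and which of their genes are active differs by tissue. Type I and type II keratins pair obligatorily and fill epithelial cells, with KRT8 and KRT18 the pair of simple epithelia. Vimentin (VIM), a type III protein, is typical of mesenchymal cells and of most cultured lines, while peripherin (PRPH), also type III, is typical of peripheral neurons. Neurofilament light, medium and heavy chains (NEFL, NEFM, NEFH) and alpha-internexin (INA) are type IV proteins that build the filaments of axons. Nestin (NES) joins vimentin in the filaments of neural progenitors. HEK293 cells are known as an unusual line for holding neuronal filament proteins beside keratins and vimentin.

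All 10 genes gave a signal above a background limit in both groups. Between treatment and control arrays, 0 of the 10 passed limma's adjusted p threshold of 0.05. Background was read from 360 clusters of olfactory receptor genes, taken as silent in kidney-derived cells. A few were bright all the same, such as OR2H1 (mean 397 over the 6 arrays) and OR1L4 (222), and some, such as those of OR2W1, repeat the same mean. The 95th percentile of the 360 lay between 55.3 and 78.8 in treatment arrays and between 52.4 and 57.2 in control arrays. Every one of the 10 genes exceeded that level on all 6 arrays, as did 47.2% of all clusters and 58.8% of all 18417 genes, so the limit is a low one. Against the 99th percentile of the same clusters, 8 genes did so on all 6 arrays, NEFH on 4 and PRPH on 0. These intensities show that neuronal, mesenchymal and epithelial filament genes were read together in the same RNA. No other cell line was measured, so whether the combination marks HEK293 cells was not tested, and intensities of different clusters are not set against each other, because each cluster has its own probes.

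**Figure D1:**
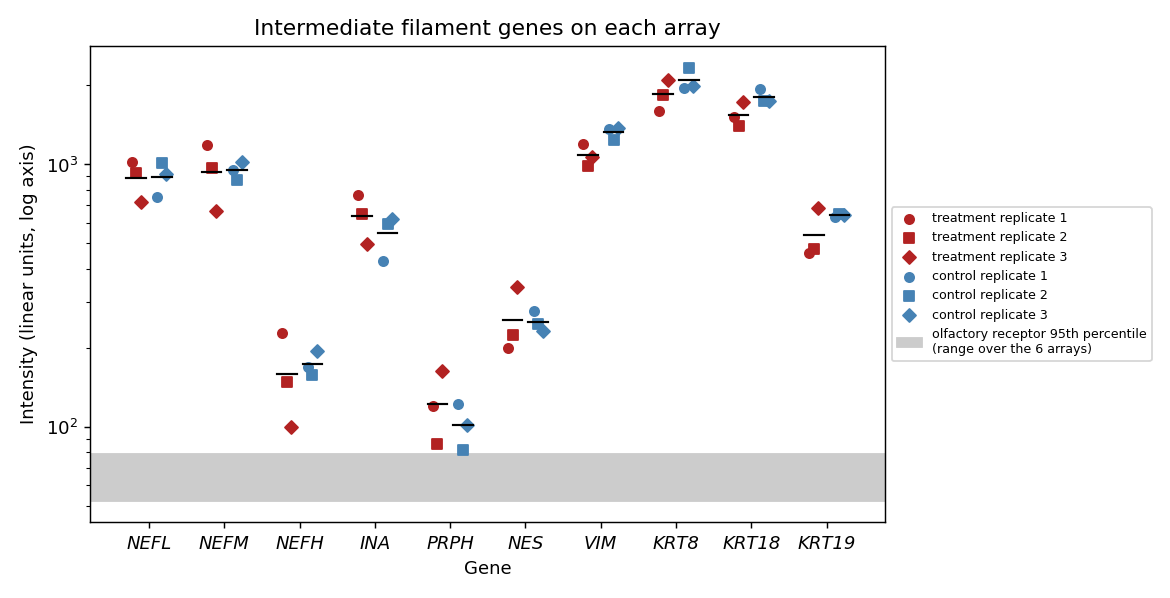
Intensity of each gene (linear units on a log axis) on the 3 treatment arrays (red) and the 3 control arrays (blue), with a bar at each group mean and a grey band for the 95th percentile of olfactory receptor clusters over the 6 arrays. The points of treatment and control arrays overlap for every gene except VIM and KRT18, and PRPH has the lowest points of all.

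Each of the 4 neurofilament genes was highest in replicate 1 and lowest in replicate 3 of the treatment group. NEFL, the light chain without which the other chains assemble poorly, gave intensities of 1019, 930.4 and 718 in treatment replicates 1, 2 and 3, against 755, 1011 and 918 in control replicates 1, 2 and 3. The groups overlapped, with treatment replicate 3 the lowest of the 6. On the log2(intensity + 16) scale its change, treatment minus control, was -0.01 with a 95% interval from -0.48 to 0.45 (limma, adjusted p = 0.995).

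NEFM, the medium chain, gave 1188, 969 and 663 in the treatment arrays and 956, 872 and 1020.5 in the control arrays. Treatment arrays held both the highest and the lowest value, so the control arrays lay inside their range. The means were 940 ± 264 in treatment and 949.6 ± 74.4 in control arrays (SD, n = 3 each), a log2 change of -0.05 (95% interval -0.55 to 0.45, limma adjusted p = 0.977). NEFH, the heavy chain, whose long tail projects from the filament, gave 228, 148 and 100.2 in the treatment arrays and 169, 158 and 195 in the control arrays. Here too the treatment arrays spanned the control ones, over a range in which the brightest array was 2.27 times the dimmest. Its log2 change was -0.18 (95% interval -0.74 to 0.37, limma adjusted p = 0.895).

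INA, alpha-internexin, which co-assembles with the neurofilament chains, gave 768, 646 and 499 in the treatment arrays and 428, 591 and 621 in the control arrays. Its highest values were those of treatment replicates 1 and 2 and its lowest that of control replicate 1. The means were 638 ± 135 in treatment and 546 ± 104 in control arrays (SD, n = 3 each), and the log2 change of 0.21 was the highest of the 10 genes over all 6 arrays (95% interval -0.28 to 0.71, limma adjusted p = 0.854). Leaving out control replicate 1 gave 0.05 and leaving out treatment replicate 1 gave 0.07, and PRPH was then higher (0.34 and 0.21).

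As a group the 4 genes stood above the control mean in treatment replicate 1 and below it in treatment replicate 3. Their median log2 deviation from the control mean was 0.34, 0.05 and -0.40 in treatment replicates 1, 2 and 3, and -0.13, 0.00 and 0.13 in control replicates 1, 2 and 3. Treatment replicate 3 is also the array least like the rest over all clusters, with a mean Pearson's r of 0.963 with the other 5 arrays, where the remaining arrays ran from 0.972 to 0.978. Its part in the neurofilament values was not tested. Without it the log2 changes were 0.13 for NEFL, 0.18 for NEFM, 0.08 for NEFH and 0.37 for INA, and the lowest adjusted p of the 4 was 0.543 (limma). The changes of NEFL, NEFM and NEFH thus turned positive without that array. Control arrays moved the sign as well: NEFL gave 0.08 without control replicate 2 and 0.01 without control replicate 3, and NEFM 0.00 without control replicate 3. As a description over 6 arrays of 1 series, Pearson's r was 0.96 between NEFM and NEFH and 0.85 between NEFL and INA. It was lower for the remaining pairs: 0.675 for NEFL and NEFM, 0.67 for NEFL and NEFH, 0.61 for NEFM and INA, and 0.55 for NEFH and INA.

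NES and PRPH went the opposite way in treatment replicate 3. Nestin gave 200 in treatment replicate 1, 225 in replicate 2 and 340.05 in replicate 3, against 277, 247 and 232 in the control arrays. Treatment replicate 3 was the highest of the 6 and the other treatment arrays were the lowest, with means of 255 ± 74.7 in treatment and 252 ± 22.9 in control arrays (SD, n = 3 each). The log2 change was -0.01 (95% interval -0.50 to 0.47, limma adjusted p = 0.995). Its sign depended on single arrays, with -0.23 without treatment replicate 3, against 0.13 without treatment replicate 1 and 0.05 without treatment replicate 2 or control replicate 1.

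Peripherin gave 119.7, 86.0 and 163 in the treatment arrays and 123, 81.5 and 102 in the control arrays. It lay near background, at 1.46 to 2.18 times the olfactory 95th percentile of the same array, where NEFH ran from 1.27 to 4.12 times, and its groups overlapped. The log2 change of 0.21 (95% interval -0.31 to 0.73, limma adjusted p = 0.863) became 0.01 without treatment replicate 3. Across the 6 arrays Pearson's r of NES was -0.92 with NEFM and -0.88 with NEFL, again as a description of these arrays.

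**Figure D2:**
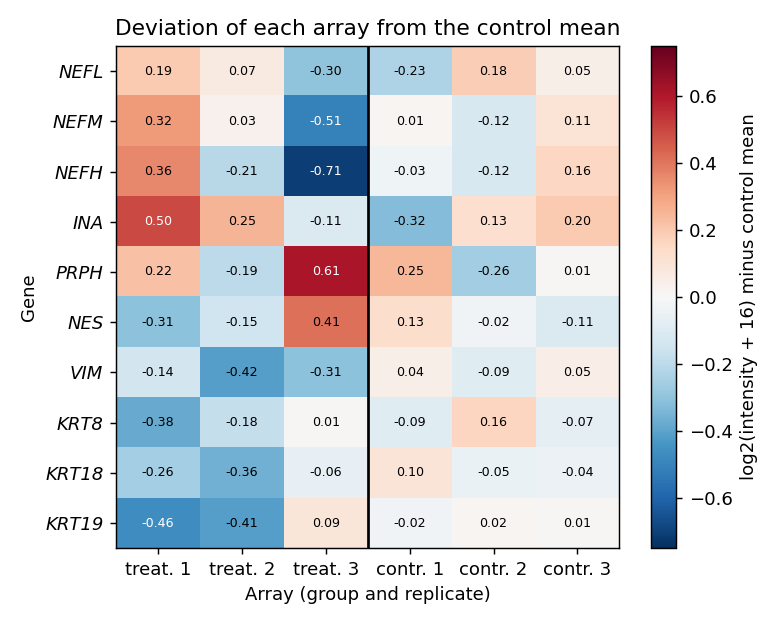
Deviation of each gene (rows) on each array (columns) from the mean of the control arrays, in log2(intensity + 16) units, with red above and blue below that mean. Treatment replicate 3 has the lowest values of NEFL (-0.30), NEFM (-0.51) and NEFH (-0.71) and the highest of PRPH (0.61) and NES (0.41).

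Vimentin had the lowest change of the 10 over all 6 arrays. VIM gave 1199, 988 and 1066 in the treatment arrays and 1362, 1241 and 1371 in the control arrays. Every treatment array lay below every control array, by a narrow gap between 1199 and 1241. The means were 1085 ± 107 in treatment and 1325 ± 72.7 in control arrays (SD, n = 3 each), a log2 change of -0.29 (95% interval -0.71 to 0.13) that did not pass (limma, adjusted p = 0.755). The change was -0.28 without treatment replicate 3, and ran from -0.36 to -0.22 when each array was left out in turn.

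KRT8, the type II keratin of simple epithelia, gave 1602, 1841 and 2104 in the treatment arrays and 1962, 2339 and 1984 in the control arrays. The 2 lowest values were treatment replicates 1 and 2, while replicate 3 lay among the control arrays. Its means were 1849 ± 251 in treatment and 2095 ± 212 in control arrays (SD, n = 3 each), and its log2 change was -0.18 (95% interval -0.62 to 0.25, limma adjusted p = 0.860).

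KRT18, its type I partner, gave 1510.5, 1402.5 and 1727 in the treatment arrays and 1931, 1744 and 1751 in the control arrays. The groups did not overlap, although treatment replicate 3 (1727) came close to control replicate 2 (1744). The log2 change was -0.23 (95% interval -0.65 to 0.19, limma adjusted p = 0.809). Other clusters that carry KRT18 in their annotation gave changes nearer 0. A further cluster named KRT18 gave 1661, 1360.04 and 1712 in the treatment arrays and 1599.7, 1719 and 1792 in the control arrays, with overlapping groups and a log2 change of -0.12 (95% interval -0.54 to 0.31). A cluster assigned to both KRT18 and the microRNA gene MIR622 gave a change of -0.13 (95% interval -0.55 to 0.29). Over the 6 arrays, Pearson's r between these 2 clusters was 0.99. With the cluster that represents KRT18 it was 0.63 for the former and 0.68 for the latter. Whether the 2 read KRT18 itself or its copies was not tested. All 3 clusters list the same 12 accessions in the annotation, and the RefSeq gene table holds 68 genes named as KRT18 pseudogenes and 52 as KRT8 pseudogenes, so the signal of either keratin may include RNA of near-identical copies. Array clusters named for the copies KRT8P41 (-0.11), KRT18P59 (-0.21) and KRT18P55 (0.17) did not pass either. A cluster assigned to both the copy KRT19P2 and the microRNA gene MIR492 gave 46.1, 50.2 and 34.6 in the treatment arrays and 68.6, 59.7 and 62.4 in the control arrays. Its groups did not overlap, and its log2 change of -0.42 (95% interval -0.85 to 0.01) did not pass (limma, adjusted p = 0.691), at intensities near the olfactory limit.

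KRT19, the smallest keratin, which lacks most of the tail domain, gave 460.2, 478 and 683 in the treatment arrays, against 630.4, 649 and 644 in the control arrays. Treatment replicates 1 and 2 were the lowest of the 6 and treatment replicate 3 the highest. The means were 540.4 ± 124 in treatment and 641 ± 9.58 in control arrays (SD, n = 3 each), a log2 change of -0.26 (95% interval -0.72 to 0.19, limma adjusted p = 0.798). Without treatment replicate 3 the change was -0.44, with an adjusted p of 0.468 (limma).

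The 3 keratins had a median log2 deviation from the control mean of -0.38 in treatment replicate 1, -0.36 in replicate 2 and 0.01 in replicate 3, against -0.02, 0.02 and -0.04 in control replicates 1, 2 and 3. In bulk RNA, fewer cells with a transcript and less of it per cell cannot be told apart, here and for every gene above.

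**Figure D3:**
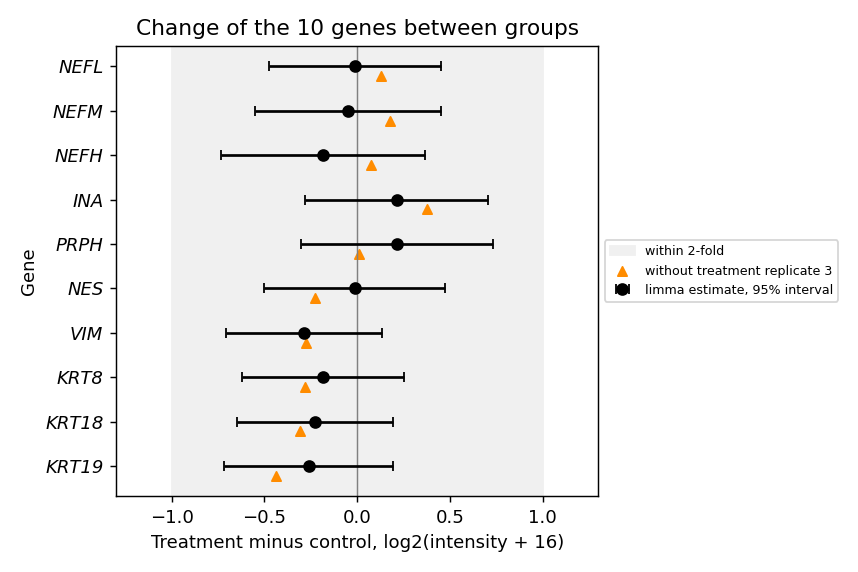
Log2 change, treatment minus control, of each gene from limma over all clusters (black points, bars for the 95% interval) and without treatment replicate 3 (orange triangles), with the range of a 2-fold change shaded. All 10 intervals include 0 and lie within 2-fold on the log2(intensity + 16) scale. The triangles of NEFL, NEFM and NEFH are on the other side of 0 from their points.

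Taking the 10 together, 0 passed limma's adjusted threshold of 0.05, beside 0.372% of all 33297 clusters (124). An unadjusted p under 0.05 was reached by 0 of the 10, beside 7.3% of all clusters. The groups did not overlap for 2 of the 10 genes, VIM and KRT18, both lower in treatment, beside 14.6% of all clusters and 7.1% in that direction. The median log2 change was -0.12 over the 10 genes and 0.01 over all clusters, and the median size of change regardless of sign was 0.20 and 0.18. The furthest interval limits were -0.74 for NEFH and 0.73 for PRPH. On the log2(intensity + 16) scale these correspond to a 1.67-fold decrease and a 1.66-fold increase. That scale understates changes of dim genes: with a plain log2 the change was -0.21 for NEFH and 0.24 for PRPH. Each interval covers a single gene and the spread of these arrays alone, so the intervals are not joint bounds on an effect of treatment.

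Differences between filament partners within each array were compared for 4 pairs. KRT8 minus KRT18, on the log2(intensity + 16) scale, was 0.25 ± 0.15 in treatment and 0.21 ± 0.20 in control arrays (SD, n = 3 each), a shift of 0.04 (exact permutation test, two-sided, p = 0.8). NEFL minus NEFM shifted by 0.04 (exact p = 0.9), NEFM minus INA by -0.26 (exact p = 0.3) and VIM minus NES by -0.27 (exact p = 0.5), all with an adjusted p of 0.9 over the 4 pairs. Single arrays moved the last 2 shifts: NEFM minus INA was -0.096 without control replicate 1, and VIM minus NES was -0.050 without treatment replicate 3 and -0.49 without treatment replicate 1. With 3 arrays against 3 the smallest p this test allows is 0.1.

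The letters before the start sites of 3 genes are shown because VIM had the lowest change of the 10 and INA and PRPH the 2 highest. The 250 bases end just before the annotated start (RefSeq), written 5′ to 3′, with capitals for a GC box (GGGCGG on either strand) or a TATA box (TATAAA on either strand); no 2 matches overlapped.
VIM, GRCh38.p14 chr10:17227991-17228240, plus strand: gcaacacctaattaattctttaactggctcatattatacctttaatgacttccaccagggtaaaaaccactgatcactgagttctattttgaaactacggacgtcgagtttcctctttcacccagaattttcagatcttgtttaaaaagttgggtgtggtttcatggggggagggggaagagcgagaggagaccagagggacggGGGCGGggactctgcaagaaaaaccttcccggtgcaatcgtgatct
INA, GRCh38.p14 chr10:103276888-103277137, plus strand: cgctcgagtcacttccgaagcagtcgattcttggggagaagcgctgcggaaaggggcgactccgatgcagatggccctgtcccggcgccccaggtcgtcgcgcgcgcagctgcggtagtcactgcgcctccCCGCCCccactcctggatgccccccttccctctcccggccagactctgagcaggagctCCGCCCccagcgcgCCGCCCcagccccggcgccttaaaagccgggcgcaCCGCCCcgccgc
PRPH, GRCh38.p14 chr12:49294897-49295146, plus strand: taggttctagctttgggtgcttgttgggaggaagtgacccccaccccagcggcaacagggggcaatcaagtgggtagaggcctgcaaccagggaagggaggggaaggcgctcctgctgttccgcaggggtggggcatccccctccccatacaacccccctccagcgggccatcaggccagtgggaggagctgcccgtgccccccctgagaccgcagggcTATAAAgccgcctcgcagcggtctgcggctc
INA held 4 GC boxes and VIM 1, and PRPH held 0 GC boxes and 1 TATA box. Over the same window, 42.6% of 35114 promoters had a GC box and 10.7% a TATA box. The 5 genes with the lowest limma p of the whole table, RSAD2, IFI44, IFIT2, IFIT3 and OAS2, all belong to the interferon response and were all higher in treatment arrays. For that reason the 5 available promoters (VIM, INA, PRPH, NES and KRT8) were also searched on both strands for the core of the interferon-stimulated response element, 2 copies of GAAA with any 2 bases between them. Of the 5, 0 held it, beside 3.02% of all promoters. With so rare a motif and so few promoters, a count of 0 was likely in advance. The absence of these letters from so short a window says nothing of the factors.

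The remaining keratins were mostly at background. Of 45 other keratin genes, 9 exceeded the olfactory 95th percentile on all 6 arrays, beside 58.8% of all genes. Among the 9 were KRT10, KRT13, KRT14, KRT2 and KRT3. None of the 45 passed limma's adjusted threshold (0 rose, 0 fell), while 7, or 15.6%, had an unadjusted p under 0.05, beside 7.3% of all clusters and 7.22% of the olfactory receptor clusters. Lowest in p were KRT27 (log2 change 0.69 ± 0.23 SE, adjusted p = 0.557), KRT83 (0.73 ± 0.24, adjusted p = 0.567) and KRT77 (0.59 ± 0.23, adjusted p = 0.650), keratins of hair or skin.

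KRT27 gave 94.1, 81.5 and 109.6 in the treatment arrays and 35.8, 65.2 and 60.6 in the control arrays. Every treatment array was above every control array, at levels close to the olfactory limit. Over the 45 genes the median log2 change was 0.27, while it was 0.12 over the 360 olfactory receptor clusters, of which 0 passed. Summed intensity of the 45 ran from 3290.5 to 4414 in treatment and from 2987 to 3173 in control arrays, without overlap. That sum weighs the brightest genes most. Gene by gene, the groups did not overlap for 8 of the 45 (17.8%), beside 14.6% of all clusters and 15.6% of the olfactory receptor clusters. Set against the mean of the control arrays, the 45 genes had a median of 0.10, 0.21 and 0.48 in treatment replicates 1, 2 and 3, and the olfactory receptors one of 0.07, 0.14 and 0.14. The median change without treatment replicate 3 was 0.14 over the 45 keratins and 0.09 over the olfactory receptors. For the 17 of the 45 genes with a mean above 56.7, the olfactory 95th percentile of the mean over 6 arrays, the median was 0.33, and for the other 28 it was 0.22, a division made after the values were seen.

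**Figure D4:**
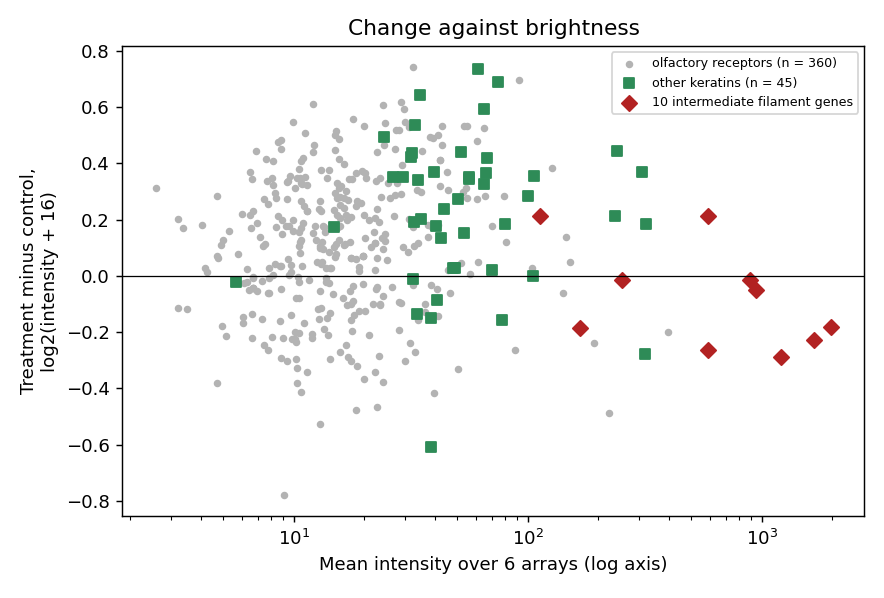
Log2 change, treatment minus control, against mean intensity over the 6 arrays (log axis) for the 10 genes (red diamonds), 45 other keratins (green squares) and 360 olfactory receptor clusters (grey). The other keratins lie mostly above 0 (median 0.27) at low intensity, and the 10 genes lie between -0.29 and 0.21.

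Other cytoplasmic filament genes also gave no call. Of 6, 0 rose, 0 fell and 0 had an unadjusted p under 0.05, with a median log2 change of 0.10. Synemin (SYNM), which links vimentin and desmin filaments to the cell cortex, gave 398, 392 and 301 in the treatment arrays and 516, 439.7 and 449.96 in the control arrays. All its treatment arrays were below all its control arrays, as was so for 7.1% of all clusters. Its log2 change of -0.36 ± 0.20 (SE) did not pass (limma, adjusted p = 0.717). GFAP, the filament protein of astrocytes, changed by 0.43 ± 0.21 (adjusted p = 0.698) and the lens protein BFSP2 by 0.31 ± 0.20 (adjusted p = 0.745), GFAP with 4 and BFSP2 with 0 arrays above the olfactory limit.

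Of 13 lamin and nuclear envelope genes, 0 passed in either direction and the median was -0.09. The olfactory limit was exceeded on all arrays by 12 of them, beside 58.8% of all genes. SUN2 (-0.44 ± 0.22 SE, adjusted p = 0.698) and SUN1 (-0.31 ± 0.20, adjusted p = 0.742), which tie the lamina to the cytoskeleton, and the giant nesprin SYNE2 (0.37 ± 0.28, adjusted p = 0.787) had the lowest p by limma, with SYNE2 at 0.61 without treatment replicate 3. Among 17 plakins and other filament linkers, 0 passed and 1 (5.88%) had an unadjusted p under 0.05, a share no higher than the 7.3% of all clusters, with a median of 0.04. The 1 was the keratin-binding protein FBF1, at 119, 162 and 160.5 in the treatment arrays and 206, 229 and 227 in the control arrays, a log2 change of -0.55 ± 0.20 (adjusted p = 0.634). Periplakin (PPL, -0.39 ± 0.19, adjusted p = 0.697) and trichoplein (TCHP, -0.35 ± 0.23, adjusted p = 0.754) followed, with TCHP at -0.11 without treatment replicate 3.

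Of 18 measured genes for kinases, phosphatases and turnover enzymes that act on filaments, 0 passed and 1 (5.56%, beside 7.3% of all clusters) had an unadjusted p under 0.05, with a median of -0.20. They were led by the crosslinking enzyme TGM2 (0.51 ± 0.24 SE, limma adjusted p = 0.685), CASP6, a protease that cuts lamins and keratin 18 (-0.40 ± 0.21, adjusted p = 0.702), and AURKB, a mitotic kinase of vimentin (-0.36 ± 0.19, adjusted p = 0.707).

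Cell type markers were read beside the filament genes. Of 14 neuron markers 5 were above the olfactory limit on all 6 arrays, as were 8 of 10 neural progenitor, 3 of 11 adrenal medulla, 6 of 12 epithelial, 11 of 18 mesenchymal and 6 of 14 leukocyte markers. Of all 18417 genes 58.8% were above it, a share that only the progenitor and mesenchymal lists exceeded. The leukocyte marker PTPRC, which defines that lineage, averaged 17.1 ± 7.57 in treatment and 23.4 ± 3.73 in control arrays (SD, n = 3 each), below the limit on every array. The epithelial adhesion molecule EPCAM averaged 1082 ± 167 and the mesenchymal cadherin CDH2 2588 ± 609 in treatment arrays, against 964 ± 83.1 and 2597 ± 374 in control arrays (SD, n = 3 each). The neuronal cytoskeleton gene MAP1B averaged 1021 ± 233 in treatment and 919 ± 155 in control arrays (SD, n = 3 each). PTPRC, EPCAM, CDH2 and MAP1B were picked after their values were seen and do not stand for their lists. Among the neuron markers, STMN2, DCX, ELAVL4 and SNAP25 were above the limit on 0 arrays.

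Summed intensity of the neuron markers ran from 3577 to 3766 in treatment and from 3321 to 3935 in control arrays. For the epithelial markers it ran from 2531 to 2706 in treatment and from 2258 to 2678 in control arrays, and for the mesenchymal markers from 7573 to 9546.5 and from 7246 to 9357. The groups overlapped in each of these sums and in the next 3. Summed progenitor markers ran from 3268 to 3373 in treatment and from 3193 to 4140 in control arrays, adrenal medulla markers from 810.3 to 934 and from 785 to 881, and leukocyte markers from 1487 to 2016 and from 1372 to 1670.

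Over the 11 lists, 1 of 178 measured genes passed (0.562%), a share close to the 0.372% of all clusters and 0.527% of all genes. It was the lysosomal protein CD68 in the leukocyte list, at 204, 355 and 349.97 in the treatment arrays and 94.2, 132 and 89.9 in the control arrays (log2 change 1.37 ± 0.25 SE, limma adjusted p = 0.0242). Its call ended without treatment replicate 2 (adjusted p = 0.210) or 3 (0.187) and without control replicate 1 (0.250) or 3 (0.159), with the change between 1.24 and 1.31. The genes with the lowest p in the other marker lists did not pass limma: ELAVL3, DCX and GAP43 (0.62, 0.41 and -0.35) among neuron markers, HES5, MSI1 and SOX2 (-0.24, 0.17 and -0.16) among progenitor markers, and GATA2, GATA3 and TH (-0.39, 0.34 and 0.29) among adrenal medulla markers, all log2 changes. RAB25, CLDN4 and CLDN7 (0.41, -0.35 and 0.27) led the epithelial markers, PDGFRB, COL1A1 and COL1A2 (0.64, -0.46 and 0.47) the mesenchymal ones, and MS4A1 and CSF1R (0.36 and 0.42) followed CD68, with adjusted p from 0.632 to 0.888 over these 17 genes. DCX, RAB25, PDGFRB, MS4A1 and CSF1R were above the olfactory limit on 0 arrays. An unadjusted limma p under 0.05 was reached by 3 of 18 mesenchymal markers (16.7%), beside 7.3% of all clusters. The neuron and leukocyte lists each had 1 of 14 (7.14%), and the progenitor, adrenal medulla and epithelial lists 0.

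Likeness of pattern was measured by Pearson's r of log2(intensity + 16) over the 6 arrays, against all 18417 genes, as a description. The gene most like NES was LY6G6F (0.999), most like NEFM SNRNP48 (0.998), most like NEFH TAF9B (0.996), most like INA DDX19A (0.996) and most like NEFL DNALI1 (0.993). For VIM it was SSR2 (0.994), for KRT8 TINF2 (0.994), for KRT18 TBC1D10A (0.990), for PRPH CRMP1 (0.987) and for KRT19 DDT (0.982). Values this high are common over so few arrays: between 23 (VIM) and 471 (NEFM) genes exceeded 0.95 with one of the 10. LY6G6F (mean 31.2 in treatment and 31.1 in control arrays) and DNALI1 (28.3 and 26.5) averaged below the olfactory limit.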

How the data were processed

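Total RNA of HEK293 cells was extracted with an RNeasy kit and labelled with biotin, per the labels' protocols. The authors deposited 1 linear intensity per transcript cluster and array, as the range of the values shows. The submitters' processing notes name Partek, and background correction, normalization, probe summary and genome build are not stated in those notes or the labels. Median intensity per array lay between 77.2 and 84.2. The number of arrays limits the precision.

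Symbols came from the 2016 platform annotation, which names 1 gene for 19460 clusters, several for 1754 and none for 12083. RefSeq held 19429 of the single symbols and changed 0. A gene with several clusters was represented by the one with the highest mean. All 33297 clusters entered 1 fit of log2(intensity + 16) on group, 3 against 3 arrays, with lmFit and eBayes of limma 3.58.1 (R 4.3.3). Two-sided p-values were adjusted by Benjamini-Hochberg over the whole table, and a call needed an adjusted p under 0.05. The offset of 16 keeps clusters near 0 from dominating and understates changes of dim ones. Partner differences used an exact permutation test (scipy 1.17.1). The pipeline was tested on simulated data.

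The 10 genes and all lists were chosen with earlier results of these data known. Named are the 10 genes, in each list the 3 genes with the lowest p and any that passed, and the gene most alike each of the 10. EPCAM, CDH2, MAP1B, PTPRC, the keratins above background and the pseudogene clusters were named after their values were seen. Of the listed genes, those to which the annotation gives no single-symbol cluster are not counted. Alternatives covered the offset, normalization, filters on dim clusters, 1 cluster per gene, the variance prior, a replicate block, leaving out each array, and the background limit.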

Additional observations from a re-analysis of the deposited data

How the results depend on the processing

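None of the 10 genes passed under any of the 17 alternatives to the test (0 in each). Of 170 changes recomputed, 159 kept their sign and 11 did not, all of them of NEFL, NEFM, NEFH or NES. The count of kept signs includes settings that cannot move a change. These are the filters on dim clusters, 1 cluster per gene, the variance prior and the replicate block, which alter only the p-values. With quantile normalization NEFL gave 0.0014 and NES 0.026 on the log2 scale. Leaving out 1 array at a time, NEFL ran from -0.13 to 0.13, NEFM from -0.24 to 0.18, NEFH from -0.46 to 0.077 and NES from -0.23 to 0.13, while INA ran from 0.05 to 0.37, PRPH from 0.01 to 0.42, KRT8 from -0.28 to -0.08, KRT18 from -0.31 to -0.16, KRT19 from -0.44 to -0.16 and VIM from -0.36 to -0.22. The shift of KRT8 minus KRT18 then ran from -0.048 to 0.15 and that of NEFL minus NEFM from -0.084 to 0.19, that of NEFM minus INA from -0.39 to -0.096 and that of VIM minus NES from -0.49 to -0.050.

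The count of all clusters called, 124, was 58 with an offset of 1, 40 with a plain log2, and 69 to 129 when 1 array was left out (69 without control replicate 1, 82 without treatment replicate 2). CD68, the 1 call in the lists, was lost (0 calls) with an offset of 1, an offset of 50 or a plain log2, and leaving out 1 array gave 0 to 1 calls. With the replicate number as a block, 105 clusters and 0 of the 10 genes were called. Deviations of same-numbered arrays from their group means gave r = -0.17, 0.08 and -0.36 for replicates 1, 2 and 3. Arrays of unlike number gave r from -0.19 (treatment 1, control 2) to 0.36 (treatment 1, control 3). Deviations from a mean of so few arrays depend on each other. These values therefore cannot tell whether same-numbered samples were prepared together. With the 99th percentile of olfactory receptors as background limit, 8 of the 10 genes stayed above it on all arrays. Dim clusters, PRPH and most other keratins among them, are measured near background, which limits what these arrays can show of them.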
